A study of Mus musculus with 10 samples.

Results

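The genes described here are the ligands, receptors and neuropilins of the vascular endothelial growth factor (VEGF) family: the ligands Vegfa, Vegfb, Vegfc and Pgf, the receptors Flt1, Kdr and Flt4, and the co-receptors Nrp1 and Nrp2. They were taken by symbol, with no threshold on their values, and are 9 of the 28185 genes in the deposited table. Each symbol was matched to its Ensembl gene identifier, which names the row. Of the 9, 7 averaged 10 or more normalized counts over the 10 libraries and entered the test across 11549 genes, while Vegfb (mean 6.33) and Pgf (mean 8.30) did not.

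The libraries were made from Ly6G+ cells of C57Bl/6J male mice aged 12 to 16 weeks, all of which had the left coronary artery ligated to induce myocardial infarction (MI), so that no group comes from uninjured animals. At day 3, cells of the enzyme-digested infarct region and of blood were captured with anti-Ly6G magnetic beads, Ly6G being a surface protein of mouse neutrophils. The groups are called MI (heart, without MSC, n = 3), MI+MSC (heart, n = 3), Blood (without MSC, n = 2) and Blood+MSC (n = 2). MSC are mesenchymal stromal cells, here syngeneic cells grown from the bone marrow of donors aged 6 to 8 weeks and given subcutaneously, away from the heart, as 3 injections of 1000000 cells. Stranded paired-end libraries were made after removal of ribosomal RNA, and the deposited values are read counts per gene divided by the DESeq2 size factor of the library, called normalized counts below. The labels do not say whether libraries share a mouse or how many mice gave a library, so p-values measure the spread between these libraries. The batch that the labels give is the group itself, so batch and group cannot be told apart.

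VEGF proteins are secreted dimers that guide the growth and leakiness of blood vessels. Vegfa binds Flt1 and Kdr, and signals for growth mainly through Kdr, while Vegfb and Pgf bind Flt1 alone. Vegfc acts through Flt4 on lymphatic vessels and, after cleavage, also through Kdr. Nrp1 and Nrp2 have no kinase of their own: they hold VEGF proteins next to the receptors and also bind class 3 semaphorins, which guide axons and vessels. In the heart, Flt1, Kdr and Flt4 are mainly genes of endothelial cells, whereas Vegfa is made by many cell types, including myocytes and macrophages, and responds to low oxygen through HIF factors.

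Recovered reads on genes ranged from 148594 (MI 13) to 8602711 (Blood+MSC 24). A single read equalled 8.40 normalized counts in MI 13, 7.07 in Blood 21 and between 0.168 and 2.30 elsewhere, so low values in those 2 shallow libraries rest on few reads. The labels call the cells neutrophils, and Ly6g itself was read 2 to 35 times in the cardiac libraries, at 4.75 to 26.9 normalized counts, against 41.2 to 645 in the blood libraries. In both tissues Ly6g was lower with MSC, and the groups did not overlap. It stood at 16.8 to 26.9 in MI, with MI+MSC at 4.75 to 13.8, the 16.8 resting on 2 reads of MI 13. Blood gave 198 and 645, with Blood+MSC at 57.0 and 41.2. Ly6g is 1 of 11 neutrophil markers listed, and in the heart the others did not all follow it. With MSC, 5 of the 11 were higher and 6 lower there (median log2 fold change -0.0059), and in blood 1 was higher and 10 lower. The cardiac libraries also held transcripts of other heart cells: Myh6, the main adult cardiac myosin heavy chain of the mouse, stood at 402 to 3901 normalized counts there and at 0 to 2.36 in blood. Blood 21 stood apart in platelet genes, with Pf4, a platelet chemokine, at 3038 normalized counts against 396 to 552 in the other 3 blood libraries.

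On GRCm39, the build of the files, GENCODE places Vegfa at chr17:46327919-46343309 on the minus strand, Vegfb at chr19:6958447-6965127 on the minus strand, Vegfc at chr8:54530257-54640131 on the plus strand and Pgf at chr12:85213409-85224564 on the minus strand. Flt1 lies at chr5:147498414-147662826 and Kdr at chr5:76093487-76139884, both on the minus strand, and Flt4 at chr11:49500090-49543582 on the plus strand. Nrp1 lies at chr8:129085085-129231082 and Nrp2 at chr1:62742444-62857854, both on the plus strand. All 9 are protein-coding genes. Nrp2 overlaps Gm37121 on its own strand, so reads of these genes may not be fully separable, while Kdr overlaps Gm32727 and Vegfb overlaps Trpt1 on the other strand, from which the stranded counting separates them. Counts per gene do not separate the membrane form of Flt1 from its soluble form, which lacks the kinase and traps ligand.

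RefSeq promoter sequences (table of build GRCm38.p6) were found for all 9 members, and all of their 11 entries matched GRCm39 exactly once on their chromosome. The 240 bases from 250 to 11 bases before the RefSeq start are shown for Flt1 and Kdr, the receptors with the largest differences between cardiac groups, and for Vegfa, the ligand that differed in the other direction. The window of Flt4 falls inside its first exon in GENCODE and is not shown. In GRCm39 they lie at chr5:147662832-147663071 (Flt1), chr5:76139126-76139365 (Kdr) and chr17:46343314-46343553 (Vegfa), and are written in the direction of the gene, on the minus strand. None of them holds an annotated exon base of its gene, but the Kdr window lies inside the annotated span of Kdr, between exons. The other RefSeq entry of Vegfa starts inside the gene and is not shown. Capitals mark 4 motifs searched on both strands: GGAAG (a core bound by ETS factors), TGACGTCA (a cyclic AMP response element), ACGTG (the core bound by HIF factors) and GGGCGG (a GC box).
Flt1: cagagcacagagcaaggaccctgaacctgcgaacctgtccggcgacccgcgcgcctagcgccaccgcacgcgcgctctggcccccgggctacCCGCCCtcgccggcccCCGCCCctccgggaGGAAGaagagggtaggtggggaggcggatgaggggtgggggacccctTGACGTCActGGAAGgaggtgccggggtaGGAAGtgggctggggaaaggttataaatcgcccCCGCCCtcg
Kdr: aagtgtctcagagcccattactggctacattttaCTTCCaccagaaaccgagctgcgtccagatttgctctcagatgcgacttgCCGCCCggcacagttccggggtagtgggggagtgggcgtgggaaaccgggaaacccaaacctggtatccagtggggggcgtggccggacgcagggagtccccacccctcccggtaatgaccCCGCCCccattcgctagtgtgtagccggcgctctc
Vegfa: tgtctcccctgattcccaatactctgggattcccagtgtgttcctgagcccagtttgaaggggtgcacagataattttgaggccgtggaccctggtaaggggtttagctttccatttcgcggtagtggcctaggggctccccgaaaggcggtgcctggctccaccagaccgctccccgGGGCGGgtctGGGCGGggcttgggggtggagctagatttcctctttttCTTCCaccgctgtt

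In the Flt1 window, GGAAG occurred 3 times, beginning 128, 71 and 52 bases before the start, and TGACGTCA once, beginning 81 bases before it. The windows of Kdr and Vegfa each held GGAAG once, 216 and 24 bases before the start. GGGCGG was found 3 times in the Flt1 window and 2 times in each of the other windows. ACGTG was in none of these windows. The window of the other Vegfa entry, which is not shown, held it once, beginning 211 bases before the start of that entry. Among all 32851 promoter entries cut in the same way, 62.2% held GGAAG, 15.9% ACGTG and 31.3% GGGCGG, and 472 entries held TGACGTCA. These matches describe the letters and do not show that a factor binds there.

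Ligands. Vegfa had the highest level of the 4 ligands per kilobase of exon in every group. Its normalized counts were 101, 164 and 174 in MI, from 12, 171 and 338 reads. MI+MSC stood at 433, 349 and 308, from 640, 152 and 454 reads. The Blood libraries gave 42.4 and 38.3, from 6 and 59 reads, and the Blood+MSC libraries 63.3 and 40.2. The lowest MI+MSC library thus stood above the highest MI library, the cardiac libraries all stood above the blood libraries, and the values of Blood and Blood+MSC overlapped. The mean was 363 ± 63.6 in MI+MSC, against 146 ± 39.7 for MI (SD, n = 3 each), a ratio of means of 2.48, and the fitted log2 fold change was 1.32 ± 0.29 (SE). Over all genes this did not pass the threshold with limma on log2(normalized count + 2) (adjusted p = 0.340), nor with edgeR's quasi-likelihood test on the recovered reads (adjusted p = 0.121). DESeq2 on the same reads called it higher when fitted to all libraries (adjusted p = 0.0221) and when fitted to the cardiac groups alone (adjusted p = 0.0119), and so did limma-voom with sample quality weights (adjusted p = 0.0231). Without MI 13 the log2 fold change of Vegfa was 1.08.

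The other ligands were sparse. Vegfc, the growth factor of lymphatic vessels, had normalized counts of 25.2, 24.03 and 22.6 in MI, from 3, 25 and 44 reads, with MI+MSC at 6.08, 9.18 and 14.2, from 9, 4 and 21 reads. The cardiac groups did not overlap, and MI+MSC was lower, at 9.83 ± 4.12 against 23.96 ± 1.28 (SD, n = 3 each), with a log2 fold change of -1.19 ± 0.67 (SE; limma, adjusted p = 0.648). In blood, Vegfc had 2 and 1 reads in the Blood libraries and 5 and 16 reads in the Blood+MSC libraries, which give 14.1, 0.650, 1.31 and 2.69 normalized counts.

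Pgf, the placental growth factor that binds Flt1, stood at 25.2, 8.65 and 18.01 normalized counts in MI, with MI+MSC at 8.11, 9.18 and 12.9. These values overlap, and the highest of them rests on 3 reads. It was at 0 reads in both Blood libraries and at 3 and 1 reads in Blood+MSC. Vegfb, another ligand of Flt1, had 0, 25.0 and 13.4 normalized counts in MI, with MI+MSC at 5.41, 0 and 15.6, with 1 read over both Blood libraries and 16 over both Blood+MSC libraries. Fits without the filter on low values gave log2 fold changes for MI+MSC against MI of -0.60 ± 0.65 (SE) for Pgf and -0.56 ± 0.92 (SE) for Vegfb, neither called by limma (adjusted p = 0.802 and 0.857).

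Per kilobase of exon, which allows levels of different genes to be set side by side, Vegfa made up 57.4% to 69.0% of the summed level of the 4 ligands in the MI libraries and 83.5% to 93.9% in the MI+MSC libraries. These ranges do not overlap. In blood the share was 66.6% and 95.4% in Blood, with Blood+MSC at 92.4% and 86.1%.

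**Figure D1:**
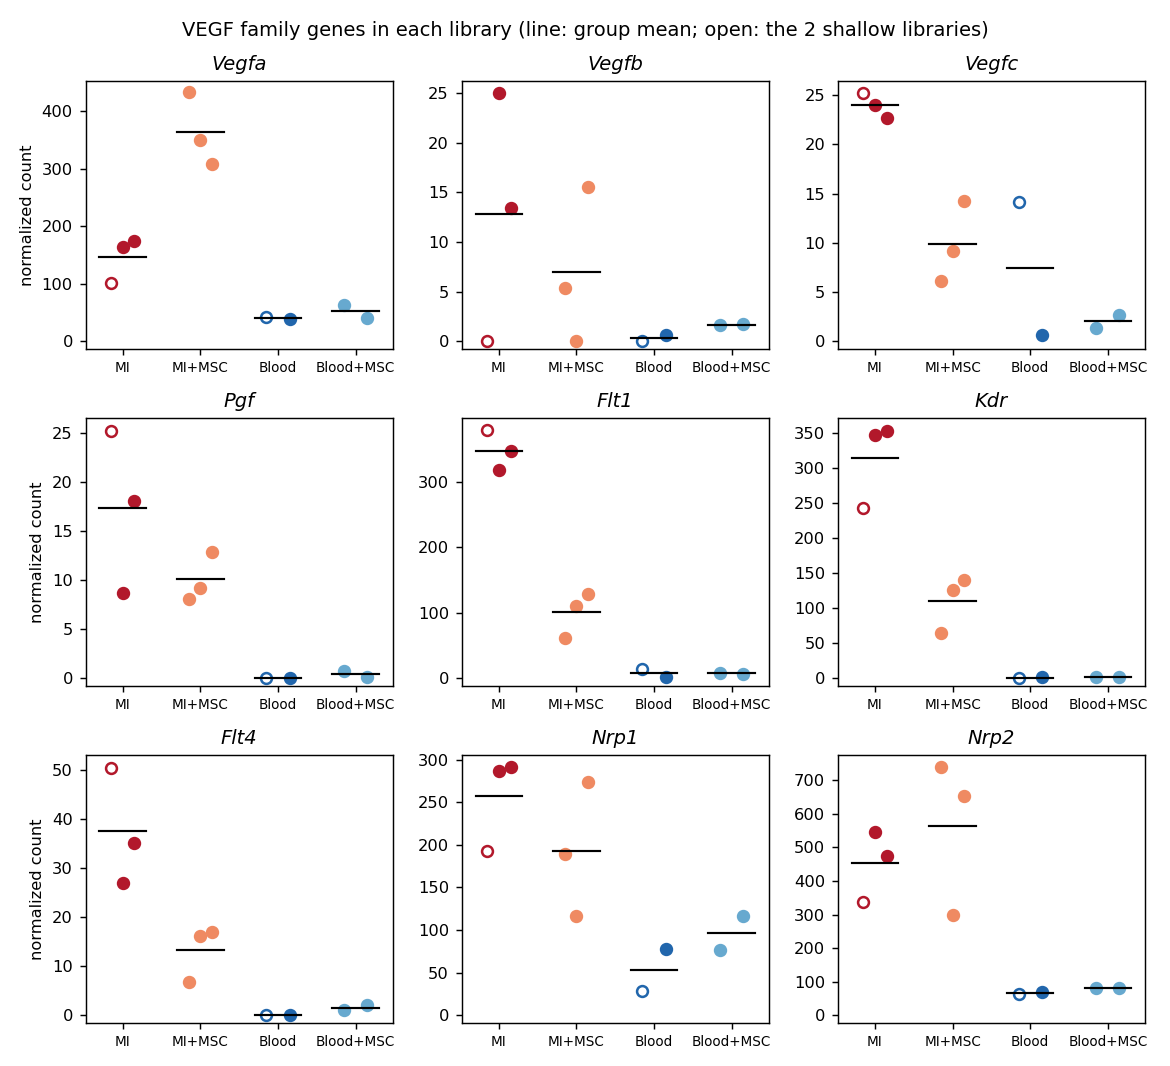
Normalized counts (vertical axes, linear) of the 9 genes in each library of the 4 groups. Points are libraries, lines are group means, and open points are the shallow libraries MI 13 and Blood 21. Vegfa is highest in MI+MSC, between 308 and 433, while Flt1, Kdr and Flt4 are highest in MI and near 0 in blood.

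Receptors. All 3 receptors were lower in every MI+MSC library than in every MI library. Flt1, a receptor with high affinity for Vegfa and weak kinase activity, stood at 378, 317 and 347 normalized counts in MI, with MI+MSC at 62.2, 110 and 129. The means were 347 ± 30.5 and 100.4 ± 34.4 (SD, n = 3 each), 3.46 times higher in MI, and the log2 fold change was -1.83 ± 0.43 (SE). limma did not call it (adjusted p = 0.375) and edgeR missed the threshold (adjusted p = 0.0535), while DESeq2 on all libraries (adjusted p = 0.00406), DESeq2 on the cardiac groups (adjusted p = 7.3e-04) and limma-voom (adjusted p = 0.00535) called it lower.

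Kdr, the main signalling receptor of Vegfa, stood at 244, 348 and 354 normalized counts in MI, with MI+MSC at 64.2, 126 and 140.3. The groups did not overlap, with means of 315 ± 62.0 and 110.3 ± 40.5 (SD, n = 3 each) and a log2 fold change of -1.55 ± 0.39 (SE). The adjusted p was 0.423 with limma, 0.0705 with edgeR, 0.00927 with DESeq2 on all libraries, 0.00950 with DESeq2 on the cardiac groups and 0.00749 with limma-voom.

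Flt4, the receptor of Vegfc, was the least abundant receptor, at 50.4, 26.9 and 35.0 normalized counts in MI, from 6, 28 and 68 reads, with MI+MSC at 6.76, 16.1 and 16.9, from 10, 7 and 25 reads. Again the groups did not overlap. The means were 37.4 ± 11.9 and 13.3 ± 5.65 (SD, n = 3 each), and the log2 fold change was -1.41 ± 0.54 (SE). Of the fits that gave an adjusted p, limma-voom alone called it lower (adjusted p = 0.0464), against adjusted p = 0.604 with limma, 0.399 with edgeR and 0.314 with DESeq2 on the cardiac groups. DESeq2 on all libraries gave it no adjusted p.

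Across the family, then, MI+MSC against MI gave 0 called members of 7 with limma, where 0 of all 11549 genes were called (0%) and 925 genes, 4 of them members, had an unadjusted p under 0.05. edgeR also called 0 members and 0 genes, with 968 genes at an unadjusted p under 0.05. DESeq2 on all libraries called 3 members (Vegfa, Flt1 and Kdr) beside 0.684% of all genes, and DESeq2 on the cardiac groups called the same 3 beside 1.28%. Neither DESeq2 fit gave an adjusted p for Vegfc, and the fit on all libraries gave none for Flt4. limma-voom called 4, Flt4 being added, beside 2.26%. The cardiac groups did not overlap for 5 of the 7 members, 1 higher and 4 lower, while 16.7% of all genes did not overlap (7.05% higher and 9.6% lower). The median log2 fold change of the 7 members was -1.19, against -0.015 over all genes tested.

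In Blood the receptors were at or near the limit of detection, and in the deeper Blood+MSC libraries they were read at low levels. Kdr had 0 and 3 reads in Blood, with Blood+MSC at 6 and 14, Flt1 had 2 and 4 reads and 29 and 42 reads, and Flt4 had 0 and 0 reads and 4 and 12 reads. In normalized counts Flt1 stood at 14.1 and 2.60 in Blood, with Blood+MSC at 7.62 and 7.07, so that the groups overlap and the higher Blood value is 2 reads of the shallow library. Kdr stood at 0 and 1.95 in Blood, with Blood+MSC at 1.58 and 2.36, which also overlap. The Blood+MSC libraries were sequenced to 6339922 and 8602711 reads, against 268860 and 2957308 in Blood, and the pooled ratio of Kdr, 1.15, had a counting interval of 0.341 to 6.04 (exact, 95%).

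In the heart the receptors and the endothelial markers were low in the same libraries. The summed normalized count of 10 endothelial markers was 2144 to 2462 in MI, with MI+MSC at 512 to 981, and 9 of the 9 tested markers had a negative log2 fold change, with a median of -1.61, although limma called none. Cdh5, the endothelial cadherin, stood at 513, 478 and 510.1 normalized counts in MI, with MI+MSC at 119.6, 158 and 233 (log2 fold change -1.60 ± 0.30, SE; limma, adjusted p = 0.340; DESeq2 on all libraries, adjusted p = 0.0027). Pecam1, an adhesion molecule of endothelial cells and platelets, stood at 429, 462 and 521 in MI, with MI+MSC at 120.3, 140.0 and 208. None of the 10 markers was at 0 in a cardiac library. In libraries of mixed cells, fewer cells of a type and less RNA per cell cannot be told apart.

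Relative to the endothelial sum, the difference between the cardiac groups was much smaller for all 3 receptors. Flt1 was 15.4%, 14.8% and 15.1% of that sum in MI, with MI+MSC at 12.1%, 14.2% and 13.1%. These shares do not overlap, but the log2 difference of -0.20, from means of -2.73 ± 0.03 in MI, with MI+MSC at -2.93 ± 0.11 (SD, n = 3 each), stands beside a fitted value of -1.83 for the gene itself, and its two-sided exact permutation p was 0.10, the smallest that 3 against 3 libraries allow. Kdr was 9.90%, 16.2% and 15.4% of the sum in MI, with MI+MSC at 12.5%, 16.2% and 14.3%, with a log2 difference of 0.08 (exact permutation p = 0.90). Flt4 was 2.05%, 1.26% and 1.52% in MI, with MI+MSC at 1.32%, 2.06% and 1.73%, with a log2 difference of 0.09 (exact permutation p = 0.70). With this design no such difference could reach a p of 0.05, so these values do not show that the shares were alike. With the geometric mean of the markers in place of their sum, the difference was -0.38 for Flt1, again without overlap. For Kdr it was -0.10 with that mean, -0.15 without MI 13 and -0.014 without MI+MSC 17, and for Flt4 it was -0.07 without MI 19 and -0.06 without MI+MSC 17. Vegfa differed in the other direction: it was 4.10% to 7.67% of the endothelial sum in MI, with MI+MSC at 31.4% to 84.4%. As the sum itself was lower in MI+MSC, a gene that did not fall with it rises in this ratio. The log2 differences relative to the sum were 2.99 for Vegfa, 1.18 for Nrp1 and 1.90 for Nrp2. The fitted values of these genes themselves were 1.32, -0.47 and 0.24.

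**Figure D2:**
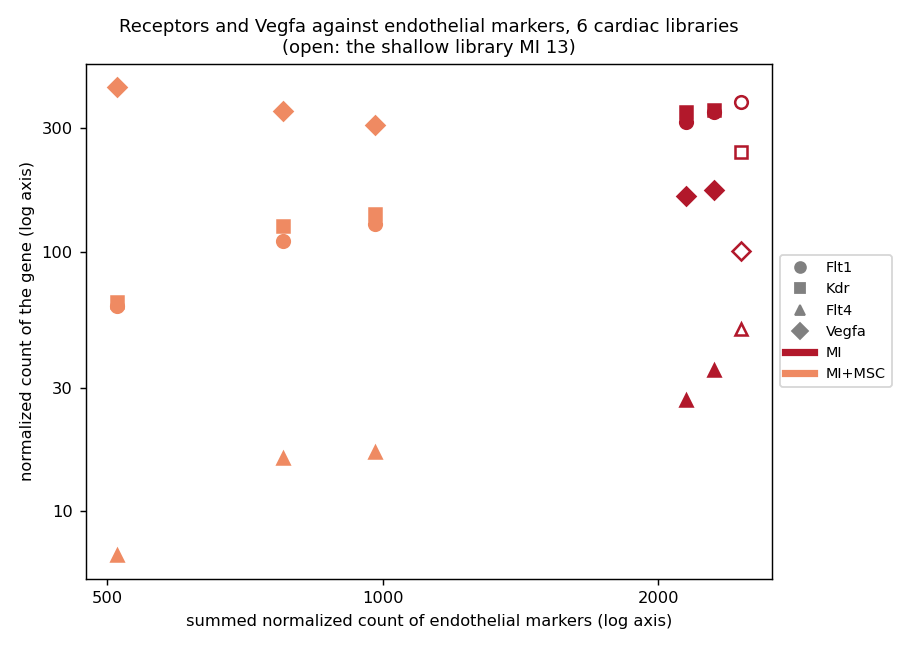
Normalized counts of Flt1, Kdr, Flt4 and Vegfa (vertical, log axis) against the summed normalized count of 10 endothelial markers (horizontal, log axis) in the 6 cardiac libraries, each symbol being a library. The 3 receptors are low where the marker sum is low (512 to 981, MI+MSC) and high where it is high (2144 to 2462, MI), while Vegfa is higher in MI+MSC.

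Markers of other cells also differed between the cardiac groups, none of them called by limma. All 8 mural markers were lower in MI+MSC (median log2 fold change -0.99, summed counts 1014 to 1219 in MI, with MI+MSC at 282 to 689), and so were all 8 cardiomyocyte markers (median -1.36, sums 7782 to 23530 and 3040 to 12244). Of 9 monocyte and macrophage markers 8 were higher (median 0.87, sums 2605 to 7668 and 5535 to 11244), C1qa being at 336 to 1247 in MI, with MI+MSC at 1104 to 2263. Platelet sums were 471 to 649 and 859 to 1767, with Pf4 at 252 to 516 and 682 to 1233. Yet of the 8 platelet markers only 3 had a positive log2 fold change and 5 a negative one (median -0.32). The neutrophil sums overlapped (2496 to 7916 and 2801 to 13438), and of the 11 neutrophil markers 5 had a positive and 6 a negative log2 fold change. Of the lymphatic markers, Prox1, the transcription factor that defines lymphatic endothelium, stood at 10.8 to 43.3 in MI, with MI+MSC at 10.1 to 23.7, and the sums of all 4 overlapped (92 to 307 and 131 to 268). The sums hide opposite directions: of the 3 lymphatic markers tested, 1 had a positive and 2 a negative log2 fold change (median -0.64). Fibroblast sums were 1009 to 1461 and 971 to 1672. Sums of the 5 T cell markers (15 to 118 and 16 to 30) and of the 6 B and plasmacytoid dendritic cell markers (160 to 223 and 129 to 233) overlapped as well. The part of these marker differences in the values of the VEGF family was not tested.

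Neuropilins. For both neuropilins the cardiac groups overlapped. Nrp1, which binds Vegfa and Sema3a, had normalized counts of 193, 286 and 292 in MI, with MI+MSC at 189, 117 and 273. The groups overlapped, and the log2 fold change was -0.47 ± 0.41 (SE; limma, adjusted p = 0.733). Nrp2, which binds Vegfc and Sema3f, stood at 336, 545 and 476 in MI, with MI+MSC at 740.2, 298 and 654, again overlapping, with a log2 fold change of 0.24 ± 0.34 (SE; limma, adjusted p = 0.819). MI+MSC 17 was the lowest of the MI+MSC libraries for both genes. Without MI+MSC 15, the highest library for Nrp2, its log2 fold change was -0.0051.

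Both neuropilins were detected in every blood library. Nrp1 stood at 28.3 and 78.0 in Blood, with Blood+MSC at 76.4 and 116.9, which overlap, and the lowest value rests on 4 reads of Blood 21. Nrp2 stood at 63.6 and 68.2 in Blood, with Blood+MSC at 81.7 and 82.6. These groups did not overlap, yet the log2 fold change was only 0.31 ± 0.42 (SE; limma, adjusted p = 0.903), and with 2 libraries a group 36.4% of all genes did not overlap (21% higher and 15.4% lower).

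Blood+MSC against Blood gave 0 called members of 7 with limma, edgeR, DESeq2 on all libraries and limma-voom, and limma called 0% of all genes (848 genes at an unadjusted p under 0.05, 0 of them members). DESeq2 on the blood groups also called 0 members, but gave no adjusted p for Vegfc, Flt1, Kdr and Flt4 and so could not call them. limma and edgeR called 0 genes, edgeR with 856 genes at an unadjusted p under 0.05, limma-voom also called 0 (559 genes at an unadjusted p under 0.05), and DESeq2 called 1.55% on all libraries and 0.338% on the blood groups. Among the members, log2 fold changes ran from -0.73 ± 0.81 (SE) for Vegfc to 0.97 ± 0.50 (SE) for Nrp1 (limma, adjusted p = 0.679), with a median of 0.31 against 0.11 over all genes. Several signs turned with the libraries used: Kdr, 0.49 with all libraries, was -0.00093 without Blood 21, Vegfc, -0.73, was 0.57 without it, Nrp1 kept its sign but stood at 0.27 without it, Flt1, 0.12, was -0.79 without Blood 22, and Vegfa, 0.31, was -0.0035 without Blood+MSC 23. Neutrophil sums in these groups did not overlap, with Blood at 44194 and 51265, and with Blood+MSC at 23270 and 16403, and 10 of 11 neutrophil markers had a negative log2 fold change (median -1.80, 0 called by limma). For Ly6g it was -2.83 ± 0.57 (SE; limma, adjusted p = 0.672; DESeq2 on all libraries, adjusted p = 1.3e-04). Platelet sums were 25986 (Blood 21) and 1115 against 699 and 594, and the endothelial sums 1667 (Blood 21) and 145 against 112 and 114, of which Pecam1 made 586 in Blood 21. Vwf, another marker in that sum, averaged 484 ± 604 in Blood, with Blood+MSC at 35.6 ± 11.3 (SD, n = 2 each). In Blood 21, 4 of the 10 endothelial markers were at 0. Cldn5, a tight junction protein of endothelium, was at 0 in 4 of 4 blood libraries. Their part in these values was not tested.

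Heart against blood. Most of the family stood higher in the heart. In MI against Blood, limma called 6 of the 7 tested members, all higher in the heart, beside 34.7% of all genes called and 21.2% called higher. edgeR called 7 (35.5% of all genes), DESeq2 on all libraries 7 (34.4%), DESeq2 on MI and Blood 6 (20.7%) and limma-voom 7 (22.4%). All 7 were higher without overlap, as were 31.6% of all genes, and 55.2% did not overlap in either direction. For Kdr, 315 normalized counts in MI stood against 3 reads over both Blood libraries, with a log2 fold change of 6.80 ± 0.43 (SE; limma, adjusted p = 5.4e-06) and a pooled ratio of 195 (exact counting interval 66.5 to 946). Flt1 had a log2 fold change of 5.34 ± 0.48 (SE; adjusted p = 3.6e-05). Flt4 was at 0 reads in both Blood libraries, so MI was at least 3.24-fold higher, taking 3 reads in each Blood library (a mean of 11.6 normalized counts) as the floor. The difference was smaller for Nrp2 (2.71 ± 0.39, SE; adjusted p = 6.3e-04), Nrp1 (2.37 ± 0.46, SE; adjusted p = 0.00332) and Vegfa (1.77 ± 0.33, SE; adjusted p = 0.00259).

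Vegfc, at 23.96 against 7.39 normalized counts, missed the threshold with limma in MI against Blood (log2 fold change 1.99 ± 0.74, SE; adjusted p = 0.0574). It passed without Blood 21, in which 2 reads make 14.1 normalized counts (log2 fold change 3.29, adjusted p = 0.00772). It also passed with edgeR (adjusted p = 0.0385), DESeq2 on all libraries (0.0281) and limma-voom (0.0268), but not with DESeq2 on MI and Blood alone (0.146). Its pooled ratio was 13.002 (exact counting interval 4.27 to 64.5). Pgf, with 47 reads in MI and 0 in Blood, stood at least 1.49-fold higher in the heart against that floor. The pooled ratio of Vegfb, 28.2, had an exact counting interval of 4.84 to 1134.

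Marker genes differed between the tissues as well. In MI against Blood, limma called 6 of 9 endothelial markers (median log2 fold change 4.58), 6 of 8 mural markers (4.16), 8 of 8 cardiomyocyte markers (7.85) and 4 of 7 fibroblast markers (1.26) higher in the heart, and 9 of 11 neutrophil markers (-3.12) and 7 of 8 platelet markers (-4.19) lower. In MI+MSC against Blood+MSC it called 6 of 9 endothelial (3.35), 5 of 8 mural (2.75), 8 of 8 cardiomyocyte (6.34) and 3 of 7 fibroblast markers (0.68) higher, and 2 of 11 neutrophil markers (-2.11) and 1 of 8 platelet markers (-0.47) lower. Their part in the differences of the VEGF family was not tested.

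In MI+MSC against Blood+MSC, limma called 5 of 7 members, all higher in the heart, beside 14.1% of all genes called and 8.23% called higher. edgeR called 6 (32% of all genes), DESeq2 on all libraries 6 (29%), DESeq2 on these groups alone 6 (39.2%) and limma-voom 6 (42.3%). All 7 were higher without overlap, as were 33.8% of all genes, while 29.7% were lower without overlap and 63.5% did not overlap in either direction. The number of all genes that limma called, 1627, depended on single libraries: it was 272 without Blood+MSC 23, 513 without Blood+MSC 24, 717 without MI+MSC 18 and 960 without MI+MSC 15, and it was 2513 without MI 13, 2704 without Blood 21 and 2716 without Blood 22. The 5 members that limma called were Kdr (log2 fold change 4.75 ± 0.43, SE; adjusted p = 1.2e-04), Flt1 (3.39 ± 0.48, SE), Vegfa (2.78 ± 0.33, SE), Nrp2 (2.65 ± 0.39, SE) and Flt4 (2.04 ± 0.61, SE; adjusted p = 0.0454). The call of Flt4 was lost without any of MI 19, MI 20, MI+MSC 17, MI+MSC 18, Blood+MSC 23 or Blood+MSC 24 (adjusted p = 0.0750 to 0.319), while DESeq2, edgeR and limma-voom called it. Nrp1 stood at 193 ± 78.1 against 96.7 ± 28.6 (SD, n = 3 and 2), with the lowest heart and the highest blood library less than 1 normalized count apart, and did not pass (limma, adjusted p = 0.190). Vegfc did not pass with limma (adjusted p = 0.186) and passed with edgeR (adjusted p = 0.0489). It also passed with DESeq2 on all libraries (adjusted p = 0.0409), DESeq2 on these groups alone (0.0171) and limma-voom (0.0286). Pgf had 35 reads in MI+MSC and 4 in Blood+MSC, and its pooled ratio was 25.2 (exact counting interval 8.999 to 97.5).

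**Figure D3:**
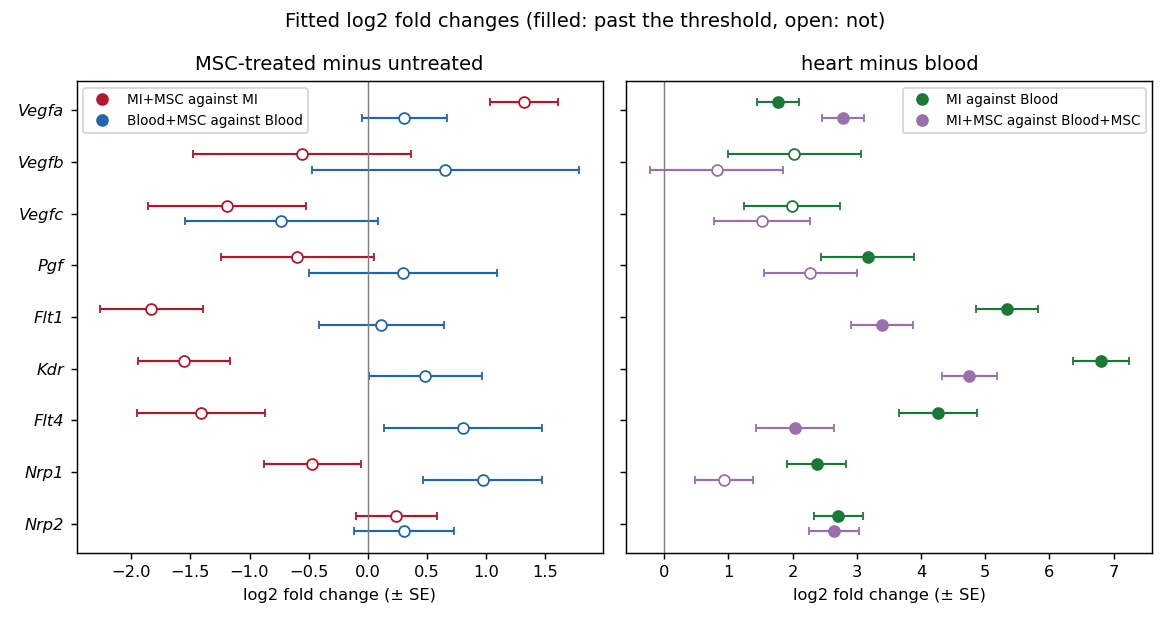
Fitted log2 fold changes (horizontal axes, ± SE) of the 9 genes for MSC-treated minus untreated groups (left) and heart minus blood (right). Filled points passed an adjusted p under 0.05 and differed by 0.5 log2 units or more, open points did not, and Vegfb and Pgf come from fits without the filter on low values. No point on the left is filled, and the values on the right are all above 0, from 0.82 for Vegfb to 6.80 for Kdr. Pgf and Flt4 had no read in Blood, so their points against Blood depend on the pseudocount.

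The difference between the MSC effect in heart and in blood was tested as an interaction. limma called 0 of 7 members and 0% of all genes, with 838 genes, 5 of them members, at an unadjusted p under 0.05. edgeR called 0 genes, with 815 at an unadjusted p under 0.05, limma-voom called 0, with 646, and DESeq2 called 0.173% of all genes and 0 members, for which it gave no adjusted p. The fitted differences were -1.95 ± 0.68 for Flt1, -2.04 ± 0.61 for Kdr, -2.22 ± 0.86 for Flt4, -1.44 ± 0.65 for Nrp1 and 1.01 ± 0.46 for Vegfa (SE; limma, adjusted p = 0.630 for each). Without Blood 22 limma called Kdr (-2.53, adjusted p = 0.0264) among 1086 genes, with Blood then represented by the shallow library alone, which is assumed to vary like the other groups.

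The order of the members per kilobase of exon differed between the cardiac groups. In MI, Nrp2 (37.6 ± 8.84), Kdr (34.3 ± 6.74), Vegfa (34.1 ± 9.24) and Flt1 (25.4 ± 2.23) came first, with each overlapping the next, followed without overlap by Nrp1 (16.9 ± 3.63) and again without overlap by Vegfc (8.38 ± 0.45), below which Pgf, Flt4 and Vegfb each overlapped the gene before (SD, n = 3). In MI+MSC, Vegfa led (84.5 ± 14.8), above Nrp2 (46.9 ± 19.5) without overlap, which in turn did not overlap Nrp1 (12.7 ± 5.13). Kdr (11.99 ± 4.40), Flt1 (7.35 ± 2.52) and the 4 genes below each overlapped the gene before. In Blood and Blood+MSC, Vegfa (9.39 ± 0.67 and 12.04 ± 3.80, SD, n = 2 each) stood above Nrp2 (5.48 ± 0.27 and 6.83 ± 0.05) without overlap. Nrp1 came next, apart from Nrp2 in Blood and overlapping it in Blood+MSC.

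Summed by role, the levels per kilobase showed how the family as a whole was composed. The 4 ligands together stood at 40.9 to 58.7 in MI, with MI+MSC at 85.8 to 107, the 3 receptors at 60.3 to 68.1 and 12.4 to 26.7, and the neuropilins at 40.6 to 64.1 and 32.5 to 73.9. The ligand sum was therefore 0.678 to 0.891 times the receptor sum in MI, with MI+MSC at 3.21 to 8.68 times. In blood the ligand sum was 9.34 to 15.9 and the receptor sum 0.402 to 1.03. Flt1 per kilobase was 1.05, 0.614 and 0.660 times Kdr in MI, with MI+MSC at 0.652, 0.588 and 0.618 times Kdr, so the balance of these receptors overlapped between groups.

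**Figure D4:**
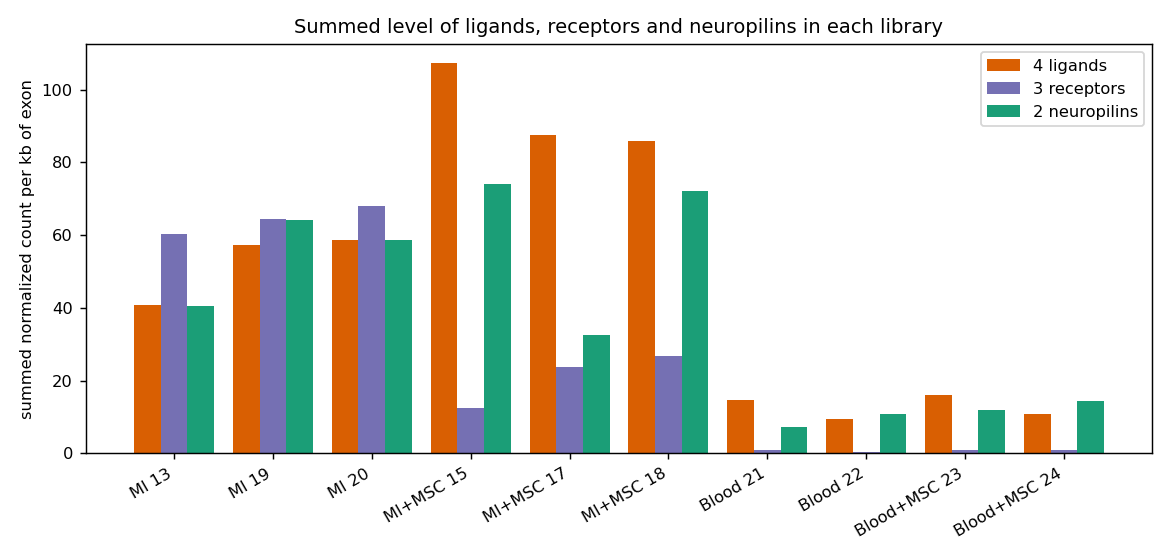
Summed normalized counts per kilobase of exon (vertical axis, linear from 0) of the 4 ligands, 3 receptors and 2 neuropilins in each library. Receptors exceed ligands in the 3 MI libraries, ligands exceed receptors 3.21 to 8.68 times in the MI+MSC libraries, and receptor bars are barely visible in blood, at 0.402 to 1.03.

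Other genes of the pathway were taken from lists written for this tissue and are described by counts. In MI+MSC against MI, limma called 0 genes of any list. Of 27 tested genes that signal below the receptors, 12 had a positive and 15 a negative log2 fold change (median -0.12). Of 11 tested genes that VEGF induces in endothelium, 5 were positive and 6 negative (median -0.69). Of 17 tested genes of the HIF pathway and its targets, 11 were positive and 6 negative, with a median of 0.04, close to the -0.015 of all genes. All 4 tested genes of the angiopoietin and Tie system were negative (median -1.59), and 9 of 10 tested semaphorin and plexin genes were (median -0.82). None of the 3 genes for the processing of Vegfc and Vegfd passed the filter on low values.

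Between tissues, the lists differed in how many genes were called. In MI against Blood, 3 of 4 angiopoietin and Tie genes were called higher in the heart: Ptprb, the endothelial phosphatase that acts on Tek (486 ± 60.3 against 1.30 ± 1.84 normalized counts, SD, n = 3 and 2; log2 fold change 7.32), Tie1 (pooled ratio 97, exact counting interval 26.7 to 804) and the angiopoietin receptor Tek (pooled ratio 49.5, exact counting interval 16.8 to 241), the last 2 with 2 and 3 reads over both Blood libraries. Of the genes that VEGF induces, 8 of 11 were called higher and 1 lower, led by the protease Adamts1 (5.08), the nuclear receptor Nr4a2 (4.85) and the mural cell attractant Pdgfb (4.79), with the homeobox gene Hlx lower (-1.88). Of the semaphorins and plexins, 7 of 10 were called higher, among them Plxna2 (5.32), Sema3f (pooled ratio 32.8, exact counting interval 8.88 to 274) and Sema3g, which had 0 reads in both Blood libraries and was at least 4.43-fold higher against the floor of 3 reads. Of the genes below the receptors, 3 of 27 were called higher, Plcg1 (3.23), Hspb1 (2.15) and Nos3, the endothelial nitric oxide synthase, at 0 reads in Blood and at least 4.48-fold higher in MI, and 7 lower, among them the adaptor Pxn (-1.73) and the kinase Prkcb (-1.59). Of the HIF genes 3 of 17 were called higher, Epas1 (6.97), which encodes the HIF subunit of endothelium, Egln1 (2.10) and Ddit4 (1.37). Values in brackets that are not named otherwise are log2 fold changes, with SE from 0.30 to 0.88 and limma adjusted p from 3.4e-06 to 0.0426 over the called genes of these lists. The background was 21.2% of all genes called higher and 13.5% called lower.

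In MI+MSC against Blood+MSC, Ptprb (log2 fold change 5.42), Tie1 (3.56) and Tek (3.42) were again called higher, with the background at 8.23% higher and 5.85% lower. The list of VEGF-induced genes had 6 of 11 called higher, led by Nr4a2 (3.73), Unc5b (3.28) and Dll4, the Notch ligand of sprouting endothelium, with 3 reads over both Blood+MSC libraries (pooled ratio 60.4, exact counting interval 19.7 to 300.7). Sema3g (2.73), Plxna2 (2.702) and Plxna1 (2.19) were the 3 of 10 semaphorin and plexin genes called, all higher. Of the 27 genes below the receptors, 1 was called higher, Nos3 (3.53), and 2 lower, among them the kinase Akt1 (-1.28). Epas1 (4.26) and Ddit4 (1.26) were called higher and Ankrd37 (-1.30) lower among the 17 HIF genes (SE 0.30 to 0.66, limma adjusted p 6.0e-05 to 0.0482 over the called genes of the lists). In Blood+MSC against Blood and in the interaction, limma called 0 genes of these lists.

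Genes with the most similar pattern were sought by Pearson correlation of log2(normalized count + 2) over the 10 libraries, as a description. All 21 values lay between 0.978 and 0.997, and the points share the difference between tissues, the depth of each library and the mix of cells. The nearest genes to Kdr were Ptprb (0.997), Mmrn2 (0.996) and Cxcl12 (0.996). To Flt1 they were B3gnt3 (0.993), Podxl (0.992) and Shank3 (0.992), and to Flt4 they were Fbln5 (0.994), Sema3g (0.994) and She (0.993). Vegfa stood nearest to Tgif1 (0.983), Gm7008 (0.982) and Gm17024 (0.978), and Vegfc to Tmem245 (0.991), Afap1l1 (0.988) and Aqp1 (0.987). Nrp2 stood nearest to Pvr (0.991), Nacc1 (0.988) and Mdfic (0.983), and Nrp1 to Firre (0.987), Zfp64 (0.981) and Abhd17a (0.979). Over the 6 cardiac libraries alone, 0 of these 21 pairs were again among the nearest 3.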

How the data were processed

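The authors trimmed reads with Trimmomatic, removed duplicates with Picard, mapped with STAR to GRCm39, used featureCounts for stranded counts per gene, dropped mitochondrial reads and applied DESeq2 size factors. Both deposited tables hold the same signal values, read counts divided by the size factor of each library by the authors (281850 of 281850 values equal). Within each library, 100% of values were whole multiples of a single read (tolerance 0.001), which gave the recovered reads, 148594 to 8602711 per library. Intervals and floors cover counting error only.

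The main test was limma (3.58.1) with trend, on log2(normalized count + 2), with 1 mean per group over 10 libraries, for 11549 genes averaging 10 or more normalized counts. Calls needed a Benjamini-Hochberg adjusted p under 0.05 and a log2 fold change of 0.5 or more in size (the adjusted p alone for the interaction). These fold changes understate those of low genes. edgeR (4.0.16), DESeq2 (1.42.0) and limma-voom on recovered reads, pseudocounts of 1 and 5, a mean of 20 or no filter, library size and TMM scaling, and leaving out each library were alternatives. Fits were tested on simulated data. Levels between genes are per kilobase of exon union in GENCODE vM39. The annotation held 27906 of the 28185 identifiers. Python 3.11.15 with scipy 1.17.1 was used.

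The members and lists were chosen with earlier results of these data known. Named are the 9 members, up to 3 called genes of each pathway list, direction and comparison whose groups do not overlap, the 3 genes most correlated with each tested member, and Pecam1, Cdh5, Ly6g, S100a8, Pf4, C1qa, Myh6 and Prox1. A gene that this rule would name is not reported here. Cldn5 and Vwf were named after their values were seen. S100a8 stood at 605 to 3122 normalized counts in heart, and 2073 to 12061 in blood.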

Additional observations from a re-analysis of the deposited data

Results flagged for a closer look

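Flt4 was singled out because every MI+MSC library lay below every MI library, while both Blood+MSC libraries, with 4 and 12 reads, lay above both Blood libraries, with 0 reads each. The fitted difference between the MSC effect in heart and in blood was -2.22 on the log2 scale, and limma did not call it (adjusted p = 0.630). As Blood had no read of Flt4, and 3 reads in Blood 21 would equal 21.2 normalized counts, a difference of the size seen in blood was not detectable at this depth, and the fitted value depends on the pseudocount.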

How the results depend on the processing

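No paired analysis was possible because the library numbers are not shared between groups. The number of members called in MI+MSC against MI was 0 with limma under every pseudocount, filter and scaling, with edgeR and without any single library, but 3 with DESeq2 on all libraries, 3 with DESeq2 on the cardiac groups and 4 with limma-voom. It stayed 0 in Blood+MSC against Blood under every alternative, between 5 and 7 in MI against Blood (6 with all libraries), and between 4 and 7 in MI+MSC against Blood+MSC (5 with all libraries). For the interaction it was 0 under every alternative except 1 without Blood 22 (0 to 1 over single libraries left out). Leaving out MI 13 and Blood 21 together was added after seeing the data, and it left Blood 22 as the only Blood library. The log2 fold changes in MI+MSC against MI were then 1.08 for Vegfa, -1.16 for Vegfc, -1.77 for Flt1 and -1.73 for Kdr. They were -1.18 for Flt4, -0.66 for Nrp1 and 0.044 for Nrp2. Signs turned as follows. In Blood+MSC against Blood, Kdr was -0.32 and Vegfc 0.073 with limma-voom, and -0.00093 and 0.57 without both shallow libraries. With single libraries left out, Kdr ranged from -0.00093 to 0.98, Vegfc from -2.03 to 0.57, Flt1 from -0.79 to 1.02 and Vegfa from -0.0035 to 0.63. In MI+MSC against MI, Nrp2 ranged from -0.0051 to 0.65. In the interaction, Nrp2 ranged from -0.32 to 0.34 and Vegfc from -1.76 to 0.84. Relative to endothelial markers, Kdr was -0.10 with the geometric mean and ranged from -0.15 to 0.21 without single libraries, and Flt4 from -0.074 to 0.28. The cause was not tested. In the 5 comparisons, in the order of the text, the median of all genes was -0.015, 0.11, 0.15, 0.09 and -0.12. Library size scaling moved it to -0.14, 0.37, 0.63, 0.17 and -0.52. Depth limits the values of Vegfb, Vegfc, Pgf and, in blood, the receptors: the floor of 3 reads stood at 25.2 normalized counts in MI 13 and 21.2 in Blood 21.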
